A study of Mus musculus with 12 samples.

Results

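The 10 genes described here are protein-coding genes of the mouse mitochondrial genome that encode subunits of the respiratory chain and of ATP synthase. They were chosen by name: the rows of the count table whose Ensembl gene ID carries the symbol mt-Nd1, mt-Nd2, mt-Nd3, mt-Nd4, mt-Nd5, mt-Cytb, mt-Co1, mt-Co2, mt-Co3 or mt-Atp6. All 10 were found, among 21959 gene IDs, of which 13 are protein-coding genes of the mitochondrial genome. All 10 passed the filter on low counts, and 12384 genes of the table did so in total.

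The samples were heart ventricles of male mice 7 weeks old, kept on chow diet, with RNA captured by its poly(A) tail and sequenced. One group held 6 wild-type mice (WT) and the other 6 mice labelled Vps13c-cKO, a cardiac-specific knockout of Vps13c, which encodes a bridge-like lipid transfer protein found at contacts between organelles. The labels do not name the Cre driver or say whether the WT mice carried floxed alleles or Cre. Per library, 12484523 to 15562942 reads were counted on genes. Vps13c itself was at 61.9 ± 4.84 CPM (counts per 1000000 counts, mean ± SD, n = 6) in WT and 18.2 ± 1.58 CPM in Vps13c-cKO mice, with no overlap between the groups.

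The respiratory chain sits in the inner mitochondrial membrane. It passes electrons from NADH and succinate to oxygen and pumps protons, and ATP synthase lets the protons flow back to make ATP, on which the beating heart depends. Most subunits are nuclear genes, imported as proteins. A small set of hydrophobic core subunits is still encoded by mitochondrial DNA. This DNA is read from both strands as long transcripts that are cut apart, mostly at the tRNAs between the genes. Most of the mRNAs are given poly(A) tails. A cell holds many copies of this DNA and heart muscle is rich in it, so these transcripts are abundant. Pieces of mitochondrial DNA have also been copied into nuclear chromosomes over evolution, and a read from such a stretch matches both places.

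Nuclear copies bear on how several of the 10 genes can be counted, so the sequences are shown first. Each gene was cut into all its overlapping windows of 100 bases, and each window was searched for, on both strands, in 141730 transcripts of nuclear genes and pseudogenes of the GENCODE M21 annotation (build GRCm38, another build than the GRCm39 of the counts). For mt-Nd1, mt-Nd5 and mt-Cytb, 0% of windows were found. The shares were 3.19% for mt-Nd2, 30.8% for mt-Co1 and 60.8% for mt-Nd4. For mt-Nd3, mt-Co2, mt-Atp6 and mt-Co3, 97.6%, 99.5%, 99.5% and 99.9% of windows were found. With windows of 50 bases the shares were higher for mt-Co1 (51.1%), mt-Nd2 (8.19%) and mt-Nd5 (7.61%). Nuclear sequence outside annotated transcripts was not searched.

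The longest matches are pseudogenes of chromosome 1 that lie side by side on the minus strand, at chr1:24611535-24616197, a block of 4663 bases. They follow the order of the genes along the mitochondrial genome: the end of mt-Co1 (Gm29216), mt-Co2 (Gm28661), mt-Atp6 (Gm10925), mt-Co3 (Gm28437), mt-Nd3 (Gm28438), mt-Nd4l (Gm10222) and the start of mt-Nd4 (Gm28439). The matching stretch of the mitochondrial genome is chrM:6381-11042, 4662 bases long. Aligned without gaps, mt-Co2 matched its copy at 681 of 681 bases, mt-Atp6 at 678 of 678 and mt-Co3 at 783 of 783. For mt-Nd3 it was 344 of 345 bases, with the substitution T3C (the mitochondrial base first, counted from 1 at the first base of the gene). The first 876 bases of mt-Nd4 matched at 876 of 876. The last 492 bases of mt-Co1 matched at 486, with T1056A, C1057T, A1059G, A1060G, C1062A and A1066T all near the start of the copy. For mt-Co1, Gm13340 at chr2:22588103-22589647 held a further set of matches, 5.53% of the windows of 100 bases and 27.5% of those of 50.

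The next 2 sequences are shown because they cross the edge of the chromosome 1 copy within a gene. Capitals mark bases that the annotated chromosome 1 copy shares, 5′ to 3′ on the plus strand of the mitochondrial genome (GENCODE M21, GRCm38).
mt-Nd4, chrM:11003-11082: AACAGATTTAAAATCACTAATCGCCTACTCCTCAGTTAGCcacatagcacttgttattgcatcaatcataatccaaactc
mt-Co1, chrM:6341-6420: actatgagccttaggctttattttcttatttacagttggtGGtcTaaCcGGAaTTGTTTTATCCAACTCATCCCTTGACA

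The last 80 bases of the 4 genes that were copied almost whole follow. The last 80 of mt-Cytb, of whose windows 0% were found, are added for contrast. The copies are annotated only up to the base before the stop codon, so the final bases are in lower case.
mt-Co2, chrM:7617-7696: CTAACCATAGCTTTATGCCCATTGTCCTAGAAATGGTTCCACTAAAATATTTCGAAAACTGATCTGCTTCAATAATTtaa
mt-Atp6, chrM:8528-8607: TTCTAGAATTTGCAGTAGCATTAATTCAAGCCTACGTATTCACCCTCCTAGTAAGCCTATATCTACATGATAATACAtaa
mt-Co3, chrM:9311-9390: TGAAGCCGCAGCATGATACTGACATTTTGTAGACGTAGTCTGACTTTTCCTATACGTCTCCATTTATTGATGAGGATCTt
mt-Nd3, chrM:9727-9806: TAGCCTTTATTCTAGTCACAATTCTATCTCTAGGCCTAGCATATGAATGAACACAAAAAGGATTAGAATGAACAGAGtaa
mt-Cytb, chrM:15209-15288: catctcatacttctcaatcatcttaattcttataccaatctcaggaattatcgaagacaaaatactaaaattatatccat

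The genes mt-Co3, mt-Nd4 and mt-Cytb end on a single T past their last whole codon, as the ends of mt-Co3 and mt-Cytb above show. In such genes the stop codon is known to be completed by the poly(A) tail. The other 7 genes carry a complete TAA or TAG.

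Levels differed far more between the 10 genes than between mice. On a scale of CPM, here by total counts, per kilobase of gene length (RPKM), as the mean ± SD of all 12 mice, mt-Co1 stood highest at 80650 ± 2781. It was followed by mt-Cytb at 43349 ± 1702, mt-Nd1 at 36684 ± 1087, mt-Nd2 at 27629 ± 1097, mt-Nd5 at 20387 ± 583.4 and mt-Nd4 at 17568 ± 976.1. A gap of 15.6-fold separated these 6 from mt-Co2 at 1129 ± 151.3, mt-Co3 at 835.1 ± 156.5, mt-Atp6 at 377.3 ± 78.47 and mt-Nd3 at 193.6 ± 17.91. The ranges over mice did not overlap between any neighbours in this order except mt-Co2 and mt-Co3, and even there mt-Co2 was the higher in 11 of 12 mice. The highest and lowest genes, mt-Co1 and mt-Nd3, lay 417-fold apart. Within the upper 6 the spread was 4.59-fold and within the lower 4 it was 5.83-fold.

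**Figure D1:**
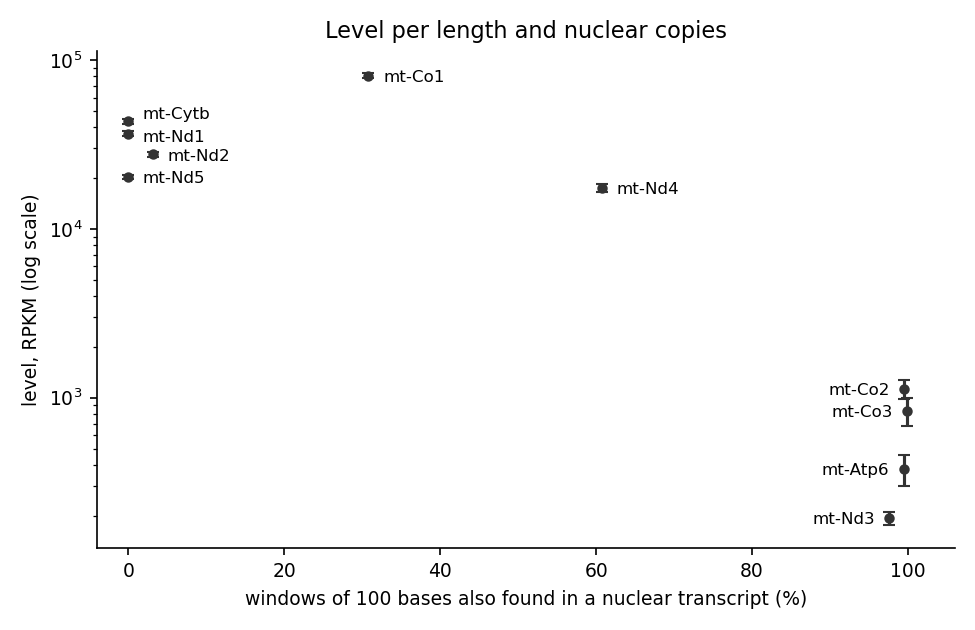
Level per length of the 10 genes, in RPKM on a log scale (mean of 12 mice, bars are the SD), against the share of their windows of 100 bases that also occur in an annotated nuclear transcript, in percent. The 4 genes with 97.6% to 99.9% of windows copied lie at 193.6 to 1129, and the 6 genes with 60.8% or less lie at 17568 to 80650.

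The 4 genes below the gap were the same 4 whose sequence is copied almost whole. The sources used here do not say how reads that match several places were counted, and the part of the copies in these levels was not tested. The 7 copies on chromosome 1 and Gm13340 are not among the 21959 gene IDs, so they have no counts of their own to compare. Values of a few further mitochondrial genes are given beside these, and the part of the copies in them was not tested either. On the same scale, mt-Nd6, which encodes a complex I subunit on the opposite strand and had 0 windows copied, stood at 9614 ± 947.6 in WT mice. The part of poly(A) capture and of the unknown strand setting in the mt-Nd6 level was not tested. Of the windows of mt-Nd4l, 98.5% were copied, and it stood at 32.6 ± 9.61. The short gene mt-Atp8 had 0 to 7 counts in a library, and none of its windows was found. It lies between mt-Co2 and mt-Atp6, whose copies on chromosome 1 are separated by 233 bases with no annotated transcript used here. In the mitochondrial genome 230 bases separate the 2 genes, counted after the stop codon of mt-Co2. The 233 bases also take in the place of that stop codon, since the copy is annotated only up to the base before it.

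The order within the upper 6 depended on the length used. A scale by windows without a nuclear copy assumes that no read from a copied stretch was counted, which was not tested. Per 1000 windows without a nuclear copy, in place of per kilobase of gene, mt-Co1 stood at 124604 ± 4296 and mt-Nd4 at 48224 ± 2679 CPM. That set mt-Nd4 from the lowest of the 6 to beside mt-Cytb at 47455 ± 1864, ahead of mt-Nd1 at 40916 ± 1213, mt-Nd2 at 31551 ± 1252 and mt-Nd5 at 21557 ± 616.9. With windows of 150 bases mt-Cytb was ahead of mt-Nd4 (49840 against 48224), and with windows of 50 bases it was behind (45288 against 48224). For the 4 copied genes this scale rests on 1 to 6 windows each and gives no usable value.

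Together the 10 genes took up much of all reads counted on genes. Their share in WT mice was 28.73% at the lowest, 29.44% at the median and 30.83% at the highest, a mean of 29.58% ± 0.74 (SD, n = 6). In Vps13c-cKO mice it was 30.05%, 30.5% and 31.66%, a mean of 30.64% ± 0.6175. All 6 Vps13c-cKO mice lay above the WT mean, 2 lay above every WT mouse, and the groups overlapped. The difference of the means was 1.06 percentage points, which is a description with no test, since the sum runs over chosen genes. By complex, the share was 12.35% in WT and 12.7% in Vps13c-cKO mice for the complex I genes, 4.831% and 5.087% for complex III, 12.38% and 12.82% for complex IV, and 0.02287% and 0.02851% for ATP synthase. The last is mt-Atp6 alone, which is among the copied genes, so these shares do not compare the complexes with each other. The copied genes mt-Co2, mt-Atp6, mt-Co3 and mt-Nd3 together gave 0.5808% ± 0.0323 of the reads of the 10 genes in WT and 0.5823% ± 0.045 in Vps13c-cKO mice.

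Between genotypes, 0 of the 10 genes passed the test (edgeR's quasi-likelihood test, Benjamini-Hochberg adjusted p under 0.05 over all tested genes, referred to below as called). Of all tested genes 10.7% were called, 5.65% as higher and 5.1% as lower. The adjusted p of the 10 ran from 0.0513 to 0.772, and 4 of the 10, all with the higher mean in Vps13c-cKO mice, had an unadjusted p under 0.05, against 23.8% of all tested genes. DESeq2 called 0 of the 10 and limma-voom called 1, mt-Nd4. The mean was higher in Vps13c-cKO mice for 8 of the 10, and their median log2 fold change was 0.06, against 0 over all tested genes. Groups did not overlap for 0 of the 10, against 4.93% of all tested genes. In data simulated at these depths on 12317 genes, 4% of genes changed 1.1-fold and 76% of genes changed 1.5-fold were recovered, over genes of all levels. For the 6 more abundant of the 10 genes the SE of the log2 fold change was 0.029 to 0.035. Recovery at their level alone was not simulated, so the shares above do not describe them.

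**Figure D2:**
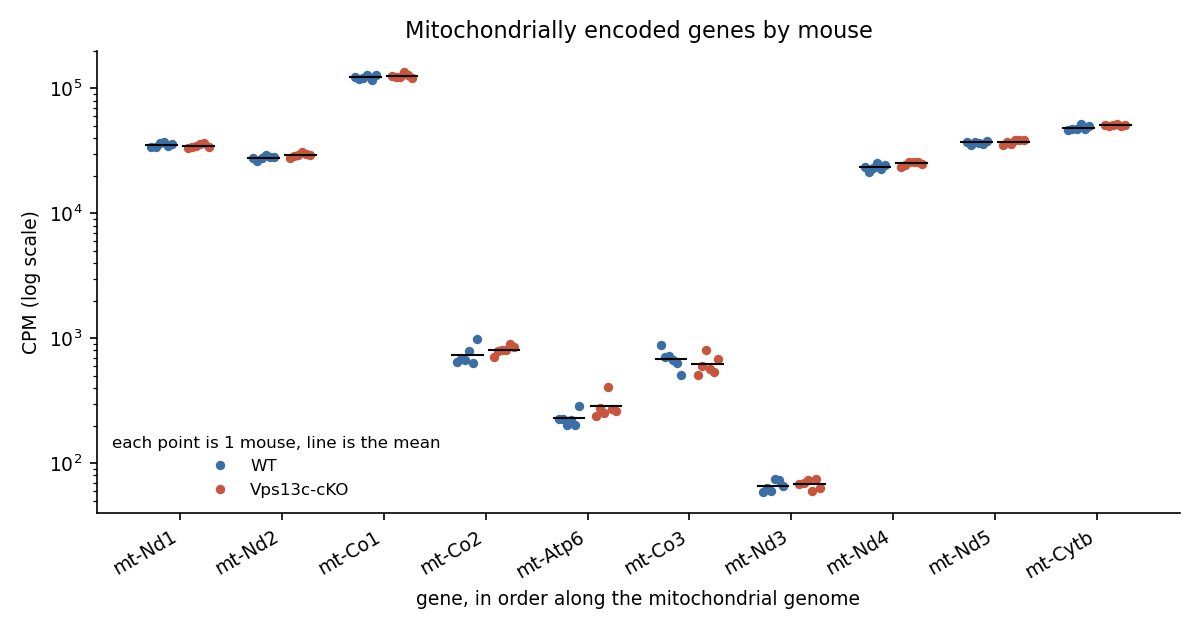
CPM (log scale) of the 10 genes in order along the mitochondrial genome, with 1 point for each of 6 WT and 6 Vps13c-cKO mice and a line at each group's mean. The groups overlap for all 10 genes, and mt-Co2, mt-Atp6, mt-Co3 and mt-Nd3 lie far below the other 6.

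Complex I takes electrons from NADH, and its mitochondrially encoded subunits form the core of its membrane arm. The antiporter-like subunit gene mt-Nd4 was at 21369, 23198 and 25107 CPM (lowest, median, highest) in WT mice and at 23630, 25304 and 26002 CPM in Vps13c-cKO mice. Of the Vps13c-cKO mice 3 lay above every WT mouse, and the log2 fold change was 0.11 ± 0.03 (SE, adjusted p = 0.0533). Leaving out 1 mouse at a time gave an adjusted p between 0.0158 and 0.135, and mt-Nd4 was called without WT 4 (log2 fold change 0.13, adjusted p = 0.0158), without WT 6 (0.12, 0.0427) and without Vps13c-cKO 1 (0.12, 0.0313).

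The gene mt-Nd2, for another antiporter-like subunit, was at 26381, 27994 and 29292 CPM in WT and 27634, 29464 and 31006 CPM in Vps13c-cKO mice, a log2 fold change of 0.07 ± 0.03 (adjusted p = 0.132). Of the Vps13c-cKO mice 4 lay above every WT mouse and the lowest lay within the WT range. The largest of these subunits, encoded by mt-Nd5, was at 35250, 37241 and 38247 CPM in WT and 35243, 37984 and 38776 CPM in Vps13c-cKO mice (log2 fold change 0.02 ± 0.03, adjusted p = 0.772). For mt-Nd5, 3 Vps13c-cKO mice lay just above every WT mouse and 1 just below. The gene mt-Nd1, for a subunit next to the ubiquinone site, was at 33881, 35230 and 37268 CPM in WT and 33658, 34565 and 36473 CPM in Vps13c-cKO mice. It was the only complex I gene of the 5 with a log2 fold change below 0, at -0.02 ± 0.03 (adjusted p = 0.741).

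The short gene mt-Nd3, whose product links the membrane arm to the ubiquinone site, was counted 755 to 1151 times per library. It was at 59.33, 64.84 and 75.58 CPM in WT and at 60.39, 69.09 and 74.88 CPM in Vps13c-cKO mice (log2 fold change 0.04 ± 0.06, adjusted p = 0.738). The 2 ranges were almost the same. When all libraries were scaled to the summed counts of the 10 genes, the log2 fold changes of mt-Nd3 and mt-Nd5 turned to 0 (-0.002) and below (-0.03).

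Complex III passes electrons from ubiquinol to cytochrome c, and mt-Cytb, for cytochrome b, is its only mitochondrially encoded gene. It was at 46063, 47472 and 52196 CPM in WT and at 49792, 50874 and 52337 CPM in Vps13c-cKO mice. The highest WT mouse was WT 4, 1 Vps13c-cKO mouse lay above it, and 4 WT mice lay below every Vps13c-cKO mouse. The log2 fold change was 0.07 ± 0.03 (adjusted p = 0.134), and the call was reached without WT 4 (0.09, adjusted p = 0.0244), with a range of 0.0244 to 0.29 when each mouse was left out in turn.

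Complex IV reduces oxygen to water. Its catalytic subunit gene mt-Co1 was the most abundant of the 10, at 12.24% of all counts in WT and 12.68% in Vps13c-cKO mice. It was at 117190, 121468 and 128609 CPM in WT and 121073, 125382 and 135978 CPM in Vps13c-cKO mice, with a log2 fold change of 0.05 ± 0.03 (adjusted p = 0.356). Of the Vps13c-cKO mice 1 lay above every WT mouse.

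The gene mt-Co2, for the subunit that takes electrons from cytochrome c, was at 632.0, 673.8 and 993.0 CPM in WT and at 710.5, 807.9 and 902.2 CPM in Vps13c-cKO mice. The highest of all 12 mice was WT 6, and 4 of the other 5 WT mice lay below every Vps13c-cKO mouse. The log2 fold change was 0.14 ± 0.08 (adjusted p = 0.33). Without WT 6 it was 0.24 (adjusted p = 0.00843), a call that no other left-out mouse gave, with a range of 0.00843 to 0.531.

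The gene mt-Co3, for a subunit without metal centres, had the lowest log2 fold change of the 10, at -0.16 ± 0.11 (adjusted p = 0.404). It was at 509.8, 690.9 and 892.4 CPM in WT and 506.2, 585.2 and 810.7 CPM in Vps13c-cKO mice, and both ranges were wide. The log2 fold change was -0.07 without WT 1 (adjusted p = 0.73) and -0.25 without Vps13c-cKO 3 (0.114), the extremes with single mice left out. In WT 6, where mt-Co2 and mt-Atp6 were at their WT highest, mt-Co3 was at its WT lowest.

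ATP synthase holds the proton channel subunit encoded by mt-Atp6, the gene with the highest log2 fold change of the 10. It was at 202.5, 225.6 and 289.0 CPM in WT and at 239.9, 267.1 and 410.6 CPM in Vps13c-cKO mice. Apart from WT 6 at 289.0 CPM, every WT mouse lay below every Vps13c-cKO mouse, and Vps13c-cKO 4 stood above all others. The log2 fold change was 0.32 ± 0.10 (95% interval 0.10 to 0.53, adjusted p = 0.0513). It was 0.18 without Vps13c-cKO 4, and mt-Atp6 was called without WT 6 (0.39, adjusted p = 0.0125), Vps13c-cKO 1 (0.36, 0.032) and Vps13c-cKO 3 (0.35, 0.041), in a range of 0.0125 to 0.12.

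**Figure D3:**
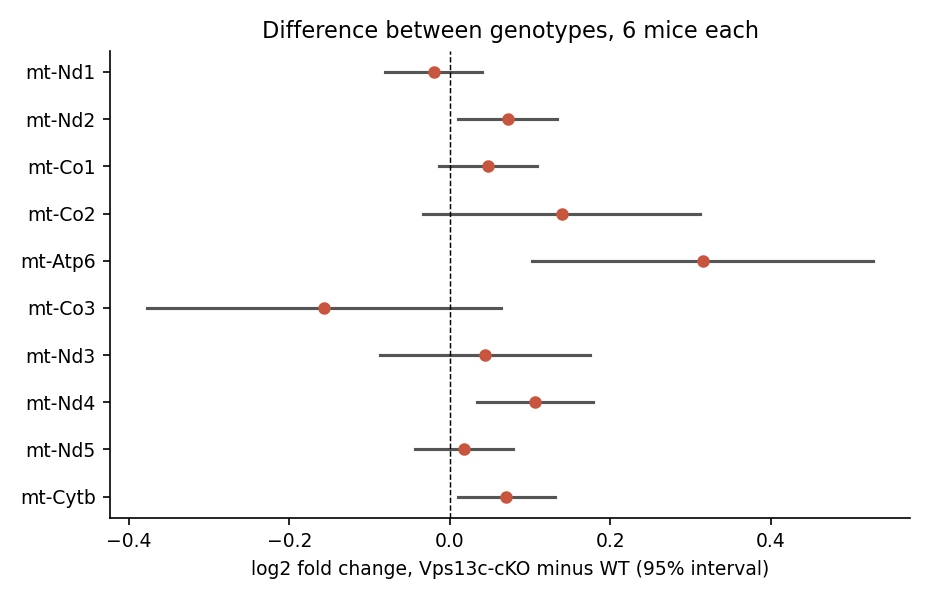
Log2 fold change (Vps13c-cKO minus WT) of the 10 genes in genome order, with 95% intervals from edgeR over 6 mice a group. The points run from -0.16 for mt-Co3 to 0.32 for mt-Atp6, and the intervals of mt-Co2, mt-Atp6, mt-Co3 and mt-Nd3 are the widest.

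The copied genes also varied more from mouse to mouse. The SD of log2 CPM within a genotype was 0.248 in WT and 0.115 in Vps13c-cKO mice for mt-Co2, 0.185 and 0.28 for mt-Atp6, 0.263 and 0.25 for mt-Co3, and 0.145 and 0.122 for mt-Nd3. For the other 6 genes it ran from 0.027 to 0.082. Over the 4096 tested genes whose mean log2 CPM was at least 5, all 4 of these included, the median SD was 0.079 in WT and 0.072 in Vps13c-cKO mice.

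Ratios of 2 genes within a mouse do not depend on how libraries are scaled. Of 5 ratios of a mitochondrial gene to a nuclear gene of the chain, 3 were higher in Vps13c-cKO mice by the two-sided exact permutation test of the log2 ratio, adjusted by Benjamini-Hochberg over the 5. Their unadjusted exact p was under 0.05, as it was for 32.6% of the ratios of all pairs of tested genes whose mean log2 CPM was at least 5. The groups overlapped in each of the 5, and the smallest p the design allows is 0.00216. The ratio of mt-Cytb counts to those of Uqcrfs1, the Rieske iron-sulfur protein of complex III, was 72.95, 75.93 and 79.15 in WT and 77.74, 81.79 and 87.13 in Vps13c-cKO mice. Of the Vps13c-cKO mice 4 lay above every WT mouse, with a log2 difference of 0.10 (exact p = 0.0152, adjusted p = 0.0379). The ratio of mt-Atp6 to Atp5b, the catalytic beta subunit of ATP synthase, was 0.0505, 0.05604 and 0.06898 in WT and 0.06355, 0.07244 and 0.1138 in Vps13c-cKO mice, with 4 again above every WT mouse. Its log2 difference was 0.42 (exact p = 0.00649, adjusted p = 0.0325), and its nuclear partner Atp5b was itself called lower. As given above, 99.5% of the windows of mt-Atp6 were copied, and the part of the copies in this ratio was not tested.

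The ratio of mt-Co1 to Sdhb, a subunit of complex II, which has no mitochondrially encoded subunit, was 244.1, 253.8 and 291.9 in WT and 272.9, 275.5 and 315.7 in Vps13c-cKO mice. Here 1 Vps13c-cKO mouse lay above every WT mouse, and WT 3 above all but 1 Vps13c-cKO mouse (log2 difference 0.13, exact p = 0.026, adjusted p = 0.0433). The ratio of mt-Co1 to Cox4i1, a nuclear subunit of complex IV, was 205.6, 216.7 and 245.4 in WT and 227.2, 234.4 and 289.0 in Vps13c-cKO mice and did not pass (0.13, exact p = 0.0606, adjusted p = 0.0758). That of mt-Nd1 to Ndufv1, the NADH-binding subunit of complex I, was 63.45, 69.37 and 72.5 in WT and 66.31, 69.93 and 76.52 in Vps13c-cKO mice and differed least (0.04, exact p = 0.416, adjusted p = 0.416).

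**Figure D4:**
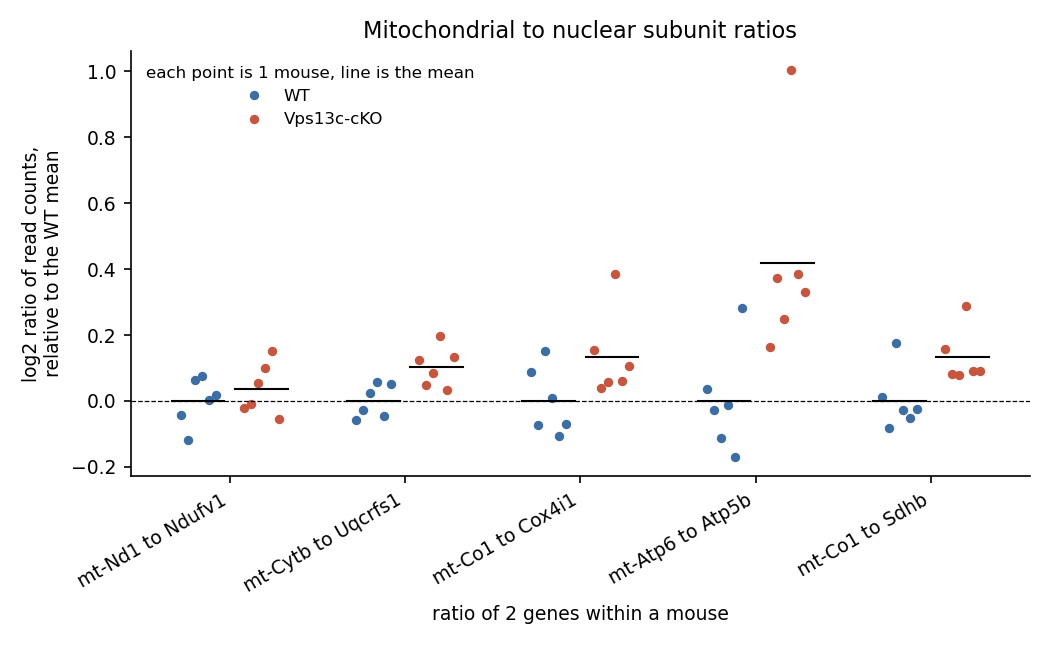
Log2 ratio of the counts of a mitochondrial gene to those of a nuclear gene in each mouse, relative to the WT mean, with lines at the group means (6 mice a group). The Vps13c-cKO means lie 0.04 to 0.42 above the WT means, the groups overlap in all 5 ratios, and Vps13c-cKO 4 is the highest for mt-Atp6 to Atp5b.

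Whether these 3 ratios passed changed when single mice were left out. Each such test has a mouse fewer, so a pass lost in it does not by itself show that the ratio rests on that mouse. The log2 difference stayed between 0.085 and 0.118 for mt-Cytb to Uqcrfs1, 0.3 and 0.474 for mt-Atp6 to Atp5b, and 0.101 and 0.167 for mt-Co1 to Sdhb. In exact permutation tests that left out each of the 12 mice in turn, the ratio of mt-Cytb to Uqcrfs1 passed 6 times and not without WT 2, WT 5 or Vps13c-cKO 1, 3, 4 or 6 (adjusted p between 0.0325 and 0.0758). The ratio of mt-Atp6 to Atp5b passed 8 times and not without WT 2, WT 5, Vps13c-cKO 4 or Vps13c-cKO 6 (0.0216 to 0.0649), with a log2 difference of 0.30 without Vps13c-cKO 4. The ratio of mt-Co1 to Sdhb passed only without WT 1 or WT 3 (0.0216 to 0.0866). Without WT 4 its log2 difference was 0.126 (adjusted p = 0.0866 in the exact permutation test). That of mt-Co1 to Cox4i1 passed without WT 1 (0.0487) and without WT 3 (0.0325).

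Ratios between neighbours along the mitochondrial genome are given as descriptions, with no test. In 8 of 9 the groups overlapped. The exception was mt-Nd1 to mt-Nd2, at 1.224, 1.269 and 1.306 in WT and 1.155, 1.182 and 1.222 in Vps13c-cKO mice, so every Vps13c-cKO mouse lay below every WT mouse by a narrow margin (log2 difference -0.09). Among the ratios of all pairs of these 4096 genes, 8.37% had groups that did not overlap. The ratio of mt-Nd4 to mt-Nd5 was 0.6062, 0.6251 and 0.6801 in WT and 0.646, 0.6684 and 0.7136 in Vps13c-cKO mice, a log2 difference of 0.09. The largest difference among the 9, 0.46 for mt-Atp6 to mt-Co3, came with SDs of 0.40 in WT and 0.41 in Vps13c-cKO mice.

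**Figure D5:**
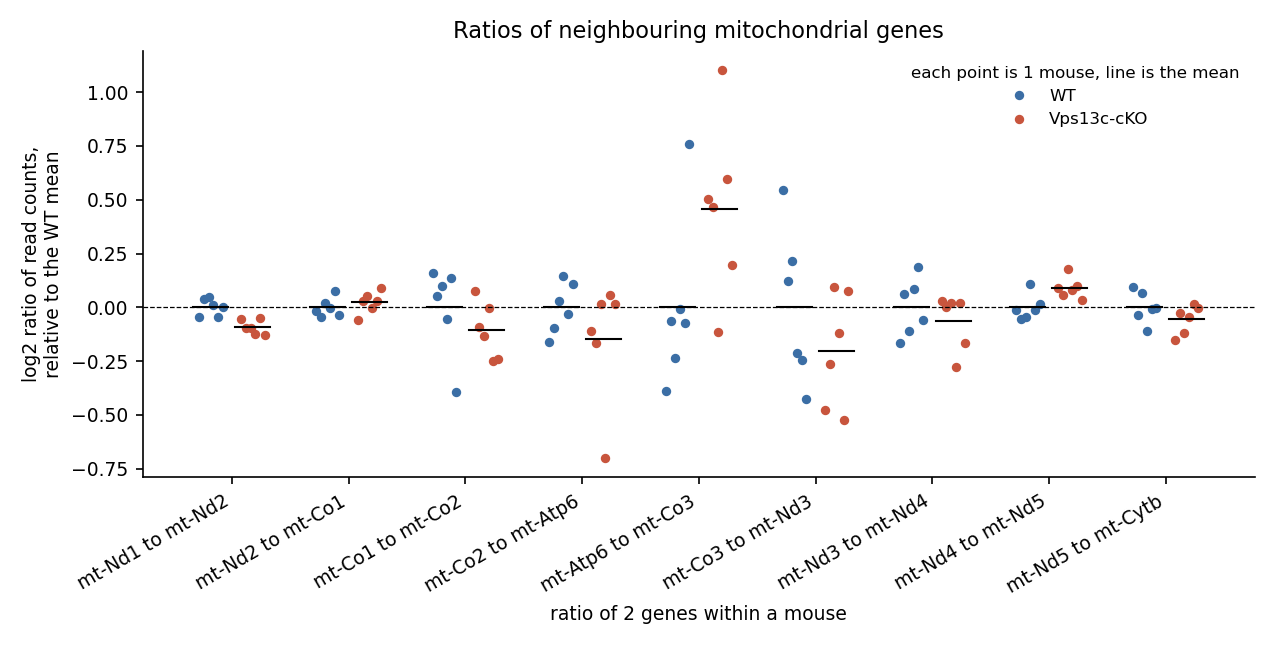
Log2 ratio of the counts of genes that are neighbours along the mitochondrial genome, in each mouse and relative to the WT mean, with lines at the group means (6 mice a group). Groups do not overlap for mt-Nd1 to mt-Nd2 alone, and mt-Atp6 to mt-Co3 scatters most in both groups.

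The remaining mitochondrial genes were not called either. For mt-Nd6 the mean was 4995 ± 486 CPM in WT and 5202 ± 255 CPM in Vps13c-cKO mice (log2 fold change 0.06, adjusted p = 0.527), and for mt-Nd4l 9.68 ± 2.86 and 11.2 ± 3.25 CPM (0.22, adjusted p = 0.516). The gene mt-Atp8 did not pass the filter on low counts, and the mitochondrial rRNA genes mt-Rnr1 and mt-Rnr2 are not among the 21959 gene IDs. Overlaps at the gene ends join mt-Nd6 and mt-Nd5, which lie on opposite strands, mt-Nd4l and mt-Nd4, mt-Atp8 and mt-Atp6, and mt-Atp6 and mt-Co3. Reads there cannot be told apart by position alone, and the sources used here do not say how they were counted.

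The nuclear subunits of complexes I to V were a list of 82 genes, all tested. Of these, 0 were called higher and 14 lower, against 5.65% and 5.1% of all tested genes. Their median log2 fold change was -0.06, and 13 of 82 lay above 0. Their summed level was 27852 to 30174 CPM in WT and 26253 to 27791 CPM in Vps13c-cKO mice, without overlap. In complex I, 3 of 37 fell: Ndufab1, the mitochondrial acyl carrier protein (-0.30), Ndufs1, an iron-sulfur subunit (-0.19), and the membrane-arm subunit Ndufc2 (-0.20). In complex II, Sdha, the succinate-binding flavoprotein (-0.18), and Sdhc, a membrane anchor (-0.15), fell, 2 of 4. In complex III, the core proteins Uqcrc2 (-0.29) and Uqcrc1 (-0.10) fell, 2 of 9. In complex IV, Cox6a2, the isoform of heart and muscle (-0.29), and Cox7b (-0.16) fell, 2 of 14.

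In ATP synthase 5 of 18 fell: the catalytic and central stalk genes Atp5a1 (-0.11), Atp5b (-0.12) and Atp5c1 (-0.17), and the peripheral stalk genes Atp5f1 (-0.11) and Atp5j (-0.13). The direct partners used in the ratios, Ndufv1 (-0.06, adjusted p = 0.277), Uqcrfs1 (-0.03, 0.582), Cox4i1 (-0.09, 0.277) and Sdhb (-0.09, 0.214), were not called. Of the 14 genes 4 are on chromosome 7, which holds 8 of the 82. The share called among all tested genes of chromosome 7 is not given here. The 4 therefore cannot be read as particular to the respiratory chain.

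Genes that make and maintain mitochondrial RNA and its translation mostly did not pass the test. Of 63 tested, 0 were called higher and 3 lower, a share near the 5.1% called lower among all tested genes, with a median log2 fold change of -0.04. Summed over the 64 listed genes, the 3 called ones included, the level was 2987 to 3133 CPM in WT and 2842 to 2941 CPM in Vps13c-cKO mice, without overlap. The coactivator of mitochondrial biogenesis Ppargc1a fell from 212.2 ± 28.8 to 153.3 ± 12.4 CPM (log2 fold change -0.47 ± 0.07, adjusted p = 0.000133), with no overlap between the groups. Tufm, the mitochondrial translation elongation factor, fell from 166.7 ± 8.71 to 140.9 ± 2.27 CPM (-0.24 ± 0.04, adjusted p = 0.00017). Lrpprc, which with Slirp keeps mitochondrial mRNAs stable and polyadenylated, fell from 250.3 ± 13.1 to 228.9 ± 9.81 CPM (-0.13 ± 0.04, adjusted p = 0.0403).

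Of 17 genes for transcription and copy number of mitochondrial DNA, 0 were called by edgeR. The RNA polymerase gene Polrmt was at 19.1 ± 1.91 CPM in WT and 19.9 ± 1.61 CPM in Vps13c-cKO mice (adjusted p = 0.695), and the packaging and initiation factor Tfam at 45.7 ± 2.54 and 44.6 ± 1.56 CPM (adjusted p = 0.701). The smallest p of the 17 belonged to Mterf3 (-0.15, unadjusted p = 0.00987) and Polg2 (-0.35, unadjusted p = 0.0223). Without WT 4, 6 of the genes for mitochondrial gene expression were called.

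Some markers of cell types also passed the test, to be read against 5.65% of all tested genes called higher and 5.1% called lower. In ventricle as a whole, fewer cells of a type and less RNA per cell cannot be told apart. Of 10 fibroblast markers 8 rose, among them Col1a2, Fbln2, Col1a1 and Lum, and their summed level was 1219 to 1337 CPM in WT and 1400 to 1573 CPM in Vps13c-cKO mice. Of 10 macrophage markers 4 rose, Lyz2, C1qa, C1qb and C1qc (256.0 to 345.1 and 321.7 to 378.7 CPM summed). Of 10 cardiomyocyte markers 3 fell, Tnni3, Myl2 and Tnnt2 (64970 to 70687 and 62737 to 67678 CPM), and of 10 endothelial markers 2 fell, Cav1 and Cldn5 (1749 to 1903 and 1597 to 1835 CPM). Of 8 tested smooth muscle and pericyte markers 1 rose, Myh11, and 2 fell, Rgs5 and Pdgfrb (1612 to 1921 and 1547 to 1612 CPM), and 0 of 5 tested red blood cell markers were called by edgeR (281.5 to 451.7 and 236.8 to 734.7 CPM). The part of these markers in the mitochondrial values was not tested.

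The ventricular light chain gene Myl2 was at 6317 ± 299 CPM in WT mice. In 11 of 12 mice the atrial genes Myl7 and Sln had 0 to 5 and 0 to 1 counts. WT 4 had 405 and 114 counts of them and 433 of the atrial light chain gene Myl4, against 8 to 31 elsewhere. Its 110 counts of the natriuretic peptide gene Nppa, from the same atrial list, lay within the 43 to 372 of the other mice. Nppa was the only called gene of the 3 of that list that were tested, at 4.56 ± 1.93 CPM in WT and 19.7 ± 5.49 CPM in Vps13c-cKO mice. The values without WT 4 are therefore given above where they change a call. Without it the share of counts differed by 1.3 points in place of 1.06, and 12 in place of 14 nuclear subunits were called.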

How the data were processed

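Poly(A) RNA of 12 ventricles was sequenced. The authors deposited raw gene counts, whole numbers per mouse, per the file headers. The tools fastp 0.22.0, HISAT2 2.1.0 and HTSeq 0.9.1, with the build GRCm39, are in the submitters' processing notes, without roles. The sources used here give no read length, strand setting or handling of reads that match several places. Counts are reads, not molecules.

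Groups came from the sample titles. Names, gene lengths and sequences came from GENCODE M21 (GRCm38), where 21851 of 21959 IDs had a name. Genes were tested in edgeR 4.0.16 (R 4.3.3) with TMM scaling, filterByExpr and the two-sided quasi-likelihood test, Benjamini-Hochberg adjusted over 12384 genes, which hold 99.92% of the counts. It gave the adjusted p of each gene unless another test is named. CPM use TMM-scaled library sizes, shares and ratios use raw counts. Ratios were tested by exact permutation with scipy 1.17.1. DESeq2 1.42.0, limma-voom (limma 3.58.1), other scalings and filters, a replicate block and leaving out each mouse were alternatives.

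In data simulated for this comparison on 12317 genes of all levels, recovery was 4% for a 1.1-fold change, 76% for 1.5-fold and 100% for 2-fold. Of 128 calls 10 were false. Chi-square per gene between replicates was 3.11 to 5.62, above sampling noise, so no library was treated as a duplicate.

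The rule for the 10 genes uses symbols only, but the 10 genes and the gene lists were proposed with earlier results of these data known. By rule, the text names the 10 genes, the other mitochondrial genes, Vps13c, both genes of each ratio, Ppargc1a, Tfam, Polrmt and Lrpprc, and of each list of respiratory or mitochondrial genes the called members where 5 or fewer were called, or the 2 with the smallest p where none was. Of the marker lists, all called members are named, or the 4 with the smallest p where more than 5 were called.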

Additional observations from a re-analysis of the deposited data

Results flagged for a closer look

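In 50 sets of 6 mice (10 genes and 14 ratios in 2 groups, and the summed share), the highest or lowest mouse was compared with the rest of its group, and 8 sets held a mouse whose gap to its nearest neighbour was, as a share of the whole range, above Dixon's 95% critical value. Chance flags about 1 in 20 such sets, and the sets share genes.

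Vps13c-cKO 4 accounts for 5 of the 8. Its mt-Atp6 level was 410.6 CPM, against 239.9 to 276.4 CPM in the other Vps13c-cKO mice. Its ratio of mt-Atp6 to Atp5b was 0.1138, against 0.06355 to 0.07418. Its ratio of mt-Co2 to mt-Atp6 was 1.966, against 2.841 to 3.322. Its ratio of mt-Co1 to Cox4i1 was 289.0, against 227.2 to 246.3, and that of mt-Co1 to Sdhb was 315.7, against 272.9 to 288.5.

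In WT 6, mt-Atp6 was at 289.0 CPM, against 202.5 to 228.1 CPM in the other WT mice, and the ratio of mt-Atp6 to mt-Co3 was 0.5669, against 0.2556 to 0.3332. In WT 3, the ratio of mt-Co1 to Sdhb was 291.9, against 244.1 to 260.7.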

How the results depend on the processing

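The count of the 10 genes called, 0 in the edgeR test, was 2 with upper-quartile factors (mt-Atp6 and mt-Nd4), 1 with a minimum mean of 5 CPM (mt-Nd4), 1 with limma-voom (mt-Nd4) and 2 with the replicate block (mt-Atp6 and mt-Nd4, adjusted p = 0.0297 and 0.0301), and ran from 0 to 3 when single mice were left out. Under DESeq2 size factors, no filter, nuclear-only scaling, scaling to the summed 10 genes and DESeq2 it was 0. Scaled to the summed 10 genes, mt-Nd3 turned to -0.002 and mt-Nd5 to -0.029, the median of all genes moved to -0.05, and 435 genes were called higher and 923 lower, in place of 700 and 631. The share of the 10 genes relative to nuclear counts differed by 2.19 points, by the construction of the smaller denominator. The share of all counts differed by 0.852 to 1.3 points with single mice left out. Among nuclear subunits 11 to 16 were called, and among genes for mitochondrial gene expression 2 to 6, with 6 without WT 4. With the replicate block, in exact sign-flip tests, the ratios of mt-Cytb to Uqcrfs1 (0.104, adjusted p = 0.0781), mt-Atp6 to Atp5b (0.417, 0.0781) and mt-Co1 to Sdhb (0.132, 0.104) had an adjusted p above 0.05. With 6 pairs the smallest unadjusted p of that test is 0.0312, so these values do not bear on whether the differences are stable. The replicate numbers do not pair the mice: correlations of same-numbered mice ran from -0.04 to 0.062, and only number 6 matched its own number best in both groups. With single mice left out, the log2 differences ran from 0.085 to 0.118 for mt-Cytb to Uqcrfs1, 0.3 to 0.474 for mt-Atp6 to Atp5b, 0.101 to 0.167 for mt-Co1 to Sdhb and 0.084 to 0.165 for mt-Co1 to Cox4i1. The causes of these shifts were not tested. Among the 10 genes mt-Nd3 had the fewest counts, at 755 to 1151 a library.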

Other observations

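Nuclear genes were ranked by how closely their log2 CPM followed that of the summed 10 genes over the 12 mice, both taken as deviations from the group mean, among 4050 genes. None passed correction: 0 genes had an adjusted p under 0.05 (100000 permutations, adjusted over all 4050), and the lowest adjusted p was 0.526. The highest Pearson r were those of App, the amyloid precursor protein gene (r = 0.92, rho = 0.895, permutation p = 0.00013, and r = 0.894 without the 2 mice farthest from the median), Clu, for clusterin (r = 0.899, rho = 0.762, permutation p = 0.00118, r = 0.833 without the 2), Ccdc80 (r = 0.879), Fnta (0.868) and Trappc6b (0.866). The lowest were those of Ankfy1 (r = -0.826, rho = -0.643, permutation p = 0.00218, r = -0.772 without the 2), Ptpn12 (-0.821), Clcn3 (-0.81), Zmym4 (-0.81) and Gigyf1 (-0.809). Of these 10 genes, Clu and Ccdc80 were called higher in Vps13c-cKO mice (log2 fold change 0.53 and 0.34) and Clcn3 lower (-0.18).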
